A study of Mus musculus with 4 samples.

Results

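The genes described here are 10 that encode elastic fibre and fibulin proteins: Eln, Fbn1, Mfap5, Emilin1, Ltbp4, Efemp2, Fbln5, Efemp1, Fbln1 and Fbln2. They were chosen by gene symbol with earlier results of these data known, so their contrasts with all genes are descriptions only. All 10 are among the 17915 coding genes of the deposited table. The samples are 4 bulk RNA-seq libraries of lung endothelial cells from mice of genotype Cdh5-CreER;aSMA-LSL-Dre;NR1 given 5 doses of tamoxifen and taken 6 weeks after TAC, a surgical narrowing of the aorta (transverse aortic constriction). Both groups share this genotype and treatment, and no library of mice without TAC is among them. Cdh5-CreER is a recombinase that tamoxifen switches on in cells using the endothelial cadherin gene, and aSMA-LSL-Dre places a further recombinase under the alpha smooth muscle actin gene. ZsGreen+ cells (2 libraries) carried the endothelial label alone, and tdTomato+ cells (2 libraries) had at some time, if only briefly, switched on alpha smooth muscle actin. The comparison asks how the transcripts of cells with that recorded history differ from those of cells without such a record.

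Elastic fibres let arteries, airways and alveolar walls stretch and recoil. Cells secrete tropoelastin, which is gathered by fibulins, crosslinked by lysyl oxidases and laid on a scaffold of fibrillin microfibrils. Microfibrils also hold latent TGF-beta through the latent TGF-beta binding proteins. Smooth muscle cells and fibroblasts are well known makers of elastic fibres in the lung, and endothelial cells of larger vessels also make some of these proteins.

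Of the 10 genes 8 stood higher in both tdTomato+ libraries than in either ZsGreen+ library, and 1 of them, Fbln2, passed the test. TPM is an abundance scaled to transcript length and is used wherever levels of the 10 genes are compared with each other. Summed over the 10 genes it was 1364 and 2109 in tdTomato+ replicates 1 and 2 and 613 and 658 in ZsGreen+ replicates 1 and 2, a ratio of group means of 2.73. All 10 genes had enough counts to be tested, from 16 counts (Efemp1) to 28962 (Ltbp4) in a library. edgeR called 1 of the 10 higher and 0 lower, against a background of 0.167% called higher and 0.137% called lower among 13177 genes. No member was lower at an unadjusted p under 0.05 (0 genes), and DESeq2 and limma-voom called 0 lower. Over all genes tested DESeq2 called 125 lower and limma-voom 16. At an unadjusted p under 0.05, 7 of the 10 were higher, beside 5.62% of all genes tested, and 3.15% of all genes were lower. Of all genes tested 19.9% were likewise higher in both tdTomato+ libraries without overlap, and 18.2% were lower. The median log2 fold change of the 10 was 1.44 and that of all genes tested -0.01. Over all genes 22 were called higher and 18 lower. On deposited TPM with a pseudocount of 1 the split was 22 higher and 9 lower.

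The libraries held 17050673 to 18574737 counts over coding genes. Endothelial identity genes were read at 14809 to 18997 CPM (counts scaled to the library's size) summed over 13 markers, none of which was at 0 in any library. Pecam1, an endothelial adhesion molecule, stood at 986 and 912 TPM in tdTomato+ and at 900.4 and 977 TPM in ZsGreen+ libraries. Egfl7, a secreted endothelial factor, stood at 2860 and 2754 TPM against 3811 and 3015 TPM, lower in tdTomato+ without overlap (log2 fold change -0.46, SE 0.24, edgeR adjusted p = 0.708). Eng, endoglin, had a log2 fold change of -0.14 (SE 0.25). The median of the 13 was -0.14, and edgeR called 0, with 1 lower at an unadjusted p under 0.05, 1 lower by DESeq2 and 0 by limma-voom. The labelled cell type thus had its defining markers in all 4 libraries. Acta2, the recorded gene, stood at 281 and 450.2 TPM against 62.1 and 70.6 TPM (log2 fold change 2.29 with SE 0.29, edgeR adjusted p = 0.0432). The labels call the libraries biological replicates but do not say that they came from separate mice, so a p-value here covers the spread among 4 libraries, which may be technical. In sorted bulk RNA, more cells that carry a transcript and more of it per cell cannot be told apart.

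**Figure D1:**
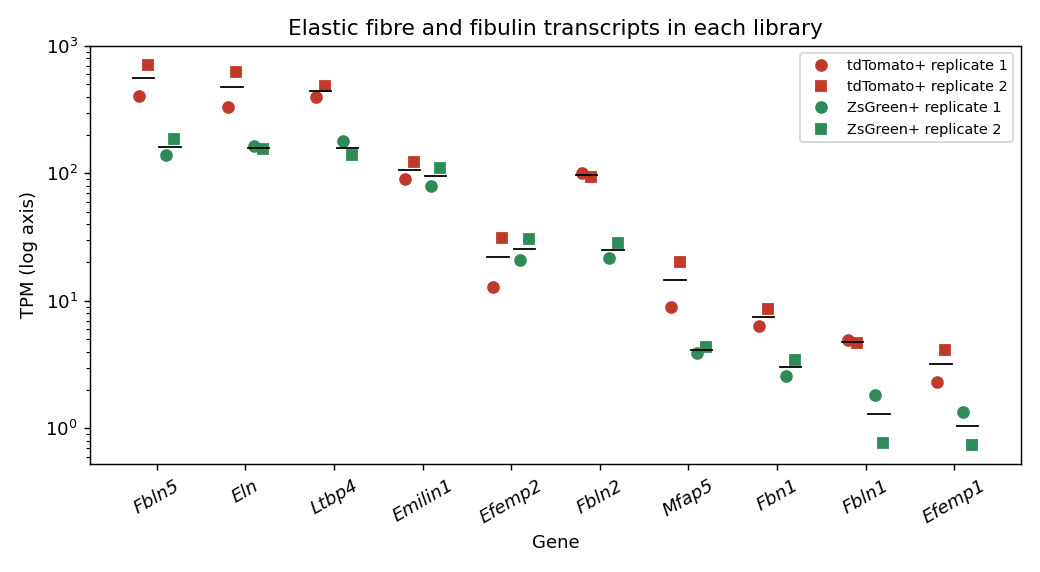
Deposited TPM (log axis) of the 10 genes in the 4 libraries, ordered by their mean in ZsGreen+ cells; bars are means of 2 libraries. Fbln5, Eln and Ltbp4 lie at 138 TPM or more in every library, and the groups overlap for Emilin1 and Efemp2.

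Upstream sequence is shown for 2 genes of fibre assembly that differ in their levels: Fbln5, whose groups did not overlap, and Efemp2, whose groups did. Both were picked after their values were seen, among the 4 genes with a stretch that holds no base of a GENCODE exon. The stretch of Fbln2, the called gene, lies wholly in an annotated exon (250 of 250 bases) and is not printed. Each run is the 250 bases before a RefSeq transcript start in GRCm38.p6, 5′ to 3′ on the gene's strand. Capitals mark matches on either strand to 5 motifs: the GC box (GGGCGG), the TATA box (TATAAA), the SMAD element (CAGAC), the AP-1 element (TGANTCA) and the CArG box of serum response factor. The regions are chr12:101819120-101819369 on the minus strand for Fbln5 and chr19:5473696-5473945 on the plus strand for Efemp2.
Fbln5: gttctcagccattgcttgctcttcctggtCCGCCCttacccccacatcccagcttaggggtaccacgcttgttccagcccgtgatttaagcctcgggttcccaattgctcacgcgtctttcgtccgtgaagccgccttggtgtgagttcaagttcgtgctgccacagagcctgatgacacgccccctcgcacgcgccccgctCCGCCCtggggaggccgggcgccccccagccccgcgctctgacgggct
Efemp2: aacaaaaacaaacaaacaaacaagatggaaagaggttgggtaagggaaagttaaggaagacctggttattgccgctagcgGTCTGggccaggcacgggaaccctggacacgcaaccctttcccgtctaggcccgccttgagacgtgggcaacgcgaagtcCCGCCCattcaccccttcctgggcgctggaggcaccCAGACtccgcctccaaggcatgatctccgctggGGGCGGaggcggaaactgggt

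The printed Fbln5 stretch holds 2 GC boxes and none of the other motifs, and that of Efemp2 holds 2 GC boxes and 2 SMAD elements. Both genes have other starts in the table: a further Fbln5 stretch holds 0 GC boxes and 2 SMAD elements, and 2 further Efemp2 stretches hold 5 GC boxes and 0 SMAD elements each. The printed difference between the genes is thus that of these starts alone. Upstream stretches of 8 of the 10 genes were in the RefSeq table, 14 in all because some genes have several starts. A GC box stood in 11 of these 14 stretches, some of which overlap each other, and in 32.7% of all 32851 stretches. The 14 held 46.4% to 79.2% G and C, most of them above the median of 52.4% for all stretches. The comparison was not matched for this content. A SMAD element stood in 5 of 14 and in 42.2% of all. An AP-1 element stood in 1 of 14, from Efemp1, and in 6.7% of all. No stretch of the 8 genes held a TATA box or a CArG box, which 12.4% and 1.5% of all stretches hold. These are matches of letters in a short window and describe no binding.

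Elastin itself, Eln, the rubber-like core of the fibre, was read at 330.4 and 628 TPM in tdTomato+ replicates 1 and 2. In ZsGreen+ libraries it stood at 163.6 and 155.7 TPM. Both tdTomato+ libraries were above both ZsGreen+ libraries, and tdTomato+ replicate 2 held 1.90 times the level of replicate 1. The log2 fold change of 1.44 (SE 0.34) did not pass (edgeR adjusted p = 0.213). Leaving out tdTomato+ replicate 2 brought it to 0.89. Eln lies at 134702595 to 134747368 of chromosome 5 in GRCm38.

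Of the microfibril genes, Fbn1 and Mfap5 were higher in tdTomato+ libraries without overlap and Emilin1 overlapped, and none of the 3 passed the test. Fbn1, fibrillin 1, the main protein of the microfibril, was low at 6.31 and 8.59 TPM in tdTomato+ and 2.56 and 3.45 TPM in ZsGreen+ libraries. The deposited table lists Fbn1 on the plus strand and GENCODE on the minus strand, and the table's span differs from RefSeq's, as do those of Mfap5 and Efemp2. Which reads the Fbn1 row counts is therefore not certain. Mfap5, a small glycoprotein that binds fibrillin, stood at 8.99 and 20.3 TPM against 3.90 and 4.32 TPM. Neither gene's groups overlapped, and their log2 fold changes of 1.18 (SE 0.24) and 1.69 (SE 0.47) did not pass edgeR's test (adjusted p = 0.162 and 0.290). Emilin1, a glycoprotein found where elastin meets the microfibril, stood at 90.5 and 122 TPM in tdTomato+ cells and at 79.3 and 110.5 TPM in ZsGreen+ cells. Its groups overlapped, with a log2 fold change of 0.04 (SE 0.23, edgeR adjusted p = 0.983). Emilin1 lies on chromosome 5 as Eln does, at 30913387 to 30921279.

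Ratios within a library set Emilin1 against its partners in the fibre. Fbn1 stood at 0.0698 and 0.0701 of the Emilin1 TPM in tdTomato+ libraries and at 0.0323 and 0.0312 in ZsGreen+ libraries. The 2 replicates of each group lay close together in this ratio, which rests on the uncertain Fbn1 row. Other ratios spread more, as Fbln1 to Emilin1 did at 0.0231 and 0.00697 in ZsGreen+ libraries. The TPM of Eln was 3.65 and 5.13 times that of Emilin1 in tdTomato+ libraries and 2.06 and 1.41 times in ZsGreen+ libraries. Eln against Fbn1 showed no such separation, at 52.4 and 73.2 against 63.9 and 45.1 times. These ratios are descriptions, and the difference between genes was not tested.

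Among the genes of fibre assembly, Ltbp4 and Fbln5 stood higher in tdTomato+ libraries and Efemp2 did not. Ltbp4, a latent TGF-beta binding protein that is also needed to bring elastin onto microfibrils, was at 399.7 and 486 TPM in tdTomato+ cells and 179 and 138 TPM in ZsGreen+ cells. Fbln5, fibulin 5, which binds tropoelastin and cell surface integrins, was the most abundant of the 10 genes by mean TPM in both groups. It stood at 407 and 709.7 TPM against 139 and 185 TPM. The groups did not overlap for either gene, and every tdTomato+ value was at least 2.19 times every ZsGreen+ value of Fbln5. Their log2 fold changes were 1.31 (SE 0.27, edgeR adjusted p = 0.156) and 1.66 (SE 0.31, edgeR adjusted p = 0.129), so neither passed. The log2 fold change of Ltbp4 was 1.65 without ZsGreen+ replicate 1 and 1.04 without ZsGreen+ replicate 2. Without tdTomato+ replicate 2 it was 1.15. In Fbln5 the value without tdTomato+ replicate 2 was 1.17. Ltbp4 spans 27305140 to 27339720 of chromosome 7 and Fbln5 spans 101746565 to 101819119 of chromosome 12 in GRCm38.

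Efemp2, fibulin 4, which links tropoelastin to lysyl oxidase, stood at 12.9 and 31.3 TPM in tdTomato+ libraries. In ZsGreen+ libraries it stood at 20.7 and 30.5 TPM. The tdTomato+ libraries held both the lowest and the highest value, a 2.43-fold spread within one group. Its log2 fold change of -0.32 (SE 0.41) did not pass (edgeR adjusted p = 0.906), and it was 0.19 without tdTomato+ replicate 1. Efemp2 overlaps Mus81, a DNA repair nuclease gene on the other strand, which was read at 24 and 31.1 CPM in tdTomato+ and 34.2 and 24.5 CPM in ZsGreen+ libraries. Reads from the shared stretch cannot be told apart where counting ignores strand. The same holds for Eln with Gm30003, an antisense gene, and for Fbn1 with Gm9913, a protein-coding gene. GENCODE places both on the other strand, and Gm30003 and Gm9913 have no row of their own in the deposited table.

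The remaining 3 genes encode further fibulins, and all 3 stood higher in tdTomato+ libraries. Fbln2, fibulin 2, a fibulin that binds fibrillin and several basement membrane proteins, rose from 21.8 and 28.3 TPM in ZsGreen+ to 100.8 and 93.7 TPM in tdTomato+ cells. In CPM it stood at 254 ± 3.86 (SD, n = 2) against 72.4 ± 5.09 (SD, n = 2). The log2 fold change of 1.81 (SE 0.17) passed edgeR's test (adjusted p = 0.0304), with the 6th smallest p of 13177 genes. Fbln2 was 250th by size of the rise. The call ended without tdTomato+ replicate 1 (log2 fold change 1.79, edgeR adjusted p = 0.0716) and without tdTomato+ replicate 2 (1.85, edgeR adjusted p = 0.126). It held without either ZsGreen+ library (edgeR adjusted p = 0.00955 without replicate 1 and 0.0458 without replicate 2). Fbln2 spans 91212460 to 91272540 of chromosome 6 in GRCm38.

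Fbln1, fibulin 1, a fibulin of basement membranes and elastic fibres, was low at 4.94 and 4.65 TPM against 1.83 and 0.77 TPM. Efemp1, fibulin 3, was the lowest of the 10 in each group's mean at 2.31 and 4.08 TPM against 1.35 and 0.74 TPM. Neither gene's groups overlapped. Behind these values were 131 and 136 counts against 53 and 25 for Fbln1, and 47 and 93 against 30 and 16 for Efemp1. Their log2 fold changes of 1.61 (SE 0.51) and 1.43 (SE 0.62) did not pass edgeR's test (adjusted p = 0.382 and 0.581). Fbln1 spans 85205949 to 85286294 of chromosome 15 and Efemp1 28853154 to 28926743 of chromosome 11.

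**Figure D2:**
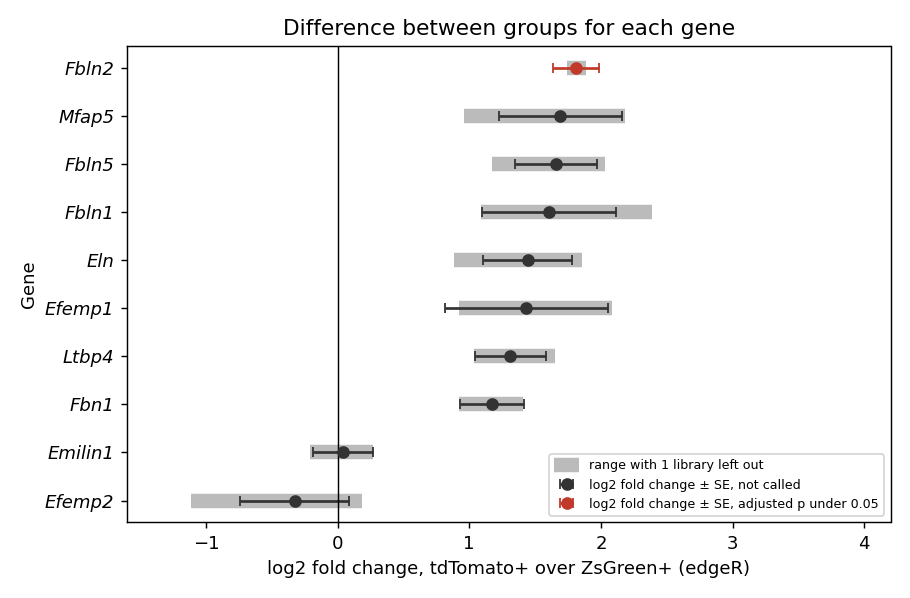
Log2 fold change of tdTomato+ over ZsGreen+ cells from edgeR with its SE for each gene; grey bands span the values with each library left out in turn. Fbln2 at 1.81 has the narrowest band, from 1.75 to 1.88, while Emilin1 and Efemp2 lie across 0.

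Leaving out libraries showed which values rest on one of them. Without tdTomato+ replicate 2 the median log2 fold change of the 10 genes was 0.94, and without tdTomato+ replicate 1 it was 1.70. In CPM 8 of the 10 genes were higher in tdTomato+ replicate 2 than in replicate 1, Fbln1 and Fbln2 being the exceptions. The ZsGreen+ libraries had no such order, with 5 genes higher in each. The 8 genes that did not overlap kept a positive log2 fold change in each of the 14 other settings tried. With no overlap between groups, leaving out a library could hardly turn that sign, so this adds no support. DESeq2 called 5 of the 10, adding Eln, Fbn1, Ltbp4 and Fbln5 to Fbln2, while limma-voom called 1. Over all 13177 genes tested DESeq2 called 205 higher and limma-voom 17.

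The order of levels was alike in both groups at the top and bottom. Fbln5, Eln and Ltbp4 led, with ranges over the 2 libraries that met each other in tdTomato+ and in ZsGreen+ cells, so their order is not resolved. In ZsGreen+ cells Emilin1 came next, clear of its neighbours, and Efemp2 and Fbln2 followed with ranges that met. In tdTomato+ cells the ranges of Fbln2 and Emilin1 met, with means of 97.2 and 106 TPM, and Fbln2 lay clear of Efemp2 at 22.1 TPM. Mfap5, Fbn1, Fbln1 and Efemp1 closed the order in both groups. The ranges of Mfap5 and Efemp2 met in tdTomato+ cells, and those of Fbln1 and Efemp1 in ZsGreen+ cells.

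Eln, Ltbp4 and Fbln5 together made up 83.4% and 86.5% of the summed TPM in tdTomato+ libraries. In ZsGreen+ libraries they made up 78.5% and 72.8%. Emilin1 took 6.64% and 5.81% of the sum in tdTomato+ and 12.9% and 16.8% in ZsGreen+ libraries. Efemp2 took 0.944% and 1.48% against 3.38% and 4.64%. These 2 shares were lower in tdTomato+ libraries without overlap. A share depends on the other genes of the sum, which was larger in tdTomato+ libraries. The TPM of Emilin1 and Efemp2 themselves overlapped between groups. Fbln5 took 29.8% and 33.6% against 22.6% and 28.2%, and Fbln2 7.39% and 4.44% against 3.56% and 4.31%, both higher without overlap. The shares of Eln, at 24.2% and 29.8% against 26.7% and 23.7%, overlapped between groups.

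**Figure D3:**
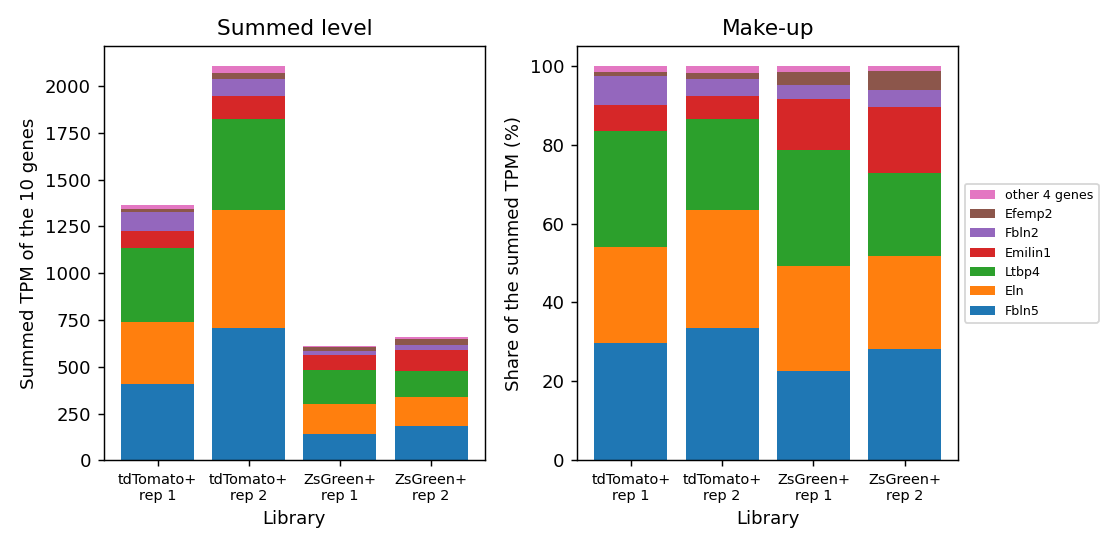
Left, summed TPM of the 10 genes per library, split by gene; right, the same as a share of the sum. The sum was 1364 and 2109 TPM in tdTomato+ and 613 and 658 TPM in ZsGreen+ libraries. Emilin1 and Efemp2 took smaller shares of the larger sum in tdTomato+ libraries, while their TPM overlapped between groups.

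The deposited annotation shows what the 10 genes share beyond their names. The Reactome label for elastic fibre formation is on 8 of them, all but Efemp1 and Fbln1, and on 42 genes of the table. A calcium-binding EGF domain, the repeated module of fibrillins and fibulins, is noted for 7 of them and for 66 genes of the table. The genes without it are Eln, Mfap5 and Emilin1. Of the 43 other genes with that domain that were tested, edgeR called 0 higher and 0 lower, with 7 and 4 at an unadjusted p under 0.05, and DESeq2 called 1 higher. Their median log2 fold change was 0.18. Of the 27 others with the Reactome label that were tested, 1 was called higher by edgeR, with 6 higher and 2 lower at an unadjusted p under 0.05, 3 higher by DESeq2, 1 by limma-voom and a median of 0.28. That gene was Fn1, fibronectin, which fibrillin assembly needs and which was singled out once its call was known. It stood at 47.8 and 40.1 TPM against 12.6 and 9.82 TPM (log2 fold change 1.80, SE 0.24, edgeR adjusted p = 0.0467).

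The genes that act with these proteins were described from lists. In the scaffold list, which includes proteoglycans and microfibril enzymes, 19 genes outside the 10 were tested, with a median log2 fold change of 0.35. None was called by edgeR, with 5 higher and 1 lower at an unadjusted p under 0.05, while DESeq2 called 2 higher and 1 lower. Adamts10, a protease of the microfibril, had a log2 fold change of 1.18 (SE 0.19, edgeR adjusted p = 0.0968). Bgn, the proteoglycan biglycan, stood at 634 and 905 TPM against 246 and 212 TPM. Thsd4, a microfibril protein also known as ADAMTSL6, had a value of -2.46 (SE 0.58) at or under 4.05 CPM in every library. Of the fibulin family outside the 10 only Hmcn1, hemicentin 1, was tested, with 0.40 (SE 0.52). Fbn2, fibrillin 2, named after its value was seen, was read at 0 counts in all 4 libraries, where 3 counts would be at most 0.19 CPM.

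Of the lysyl oxidases, the copper enzymes that crosslink elastin, none passed the test. Lox stood at 12.1 and 17.6 CPM in tdTomato+ and 2.22 and 4.00 CPM in ZsGreen+ libraries, a log2 fold change of 2.25 (SE 0.41, edgeR adjusted p = 0.126). Loxl1, which acts with fibulin 5, had 1.27 (SE 0.42, edgeR adjusted p = 0.411), and Loxl2 had -0.88 (SE 0.27, edgeR adjusted p = 0.350). Of 14 crosslinking and secretion genes tested edgeR called none, with 2 higher and 1 lower at an unadjusted p under 0.05, DESeq2 called 1 higher, and the median was 0.04. Enzymes that can cut elastic fibre proteins and their inhibitors had a median of 0.45 over 19 genes, with 4 higher and 1 lower at an unadjusted p under 0.05 and no edgeR call, and 4 higher by DESeq2. Smallest in p were Mmp2, gelatinase A, with 1.98 (SE 0.27, edgeR adjusted p = 0.0525), and Htra1, a secreted serine protease, with 1.87 (SE 0.29, edgeR adjusted p = 0.0809). Adamts4, an aggrecanase, had 1.16 (SE 0.20).

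For receptors of these proteins the median was 0.28 over 13 genes, with no edgeR call, 1 higher and 1 lower at an unadjusted p under 0.05, and 1 lower by DESeq2. Itgb3, the integrin beta 3 chain, had 0.68 (SE 0.18) and Itga4 1.23 (SE 0.67). Cd36, a scavenger receptor, stood at 566.5 and 638 CPM in tdTomato+ and 937 and 1475 CPM in ZsGreen+ libraries. The median for the TGF-beta cargo and its signal was -0.02 over 18 genes, again with no edgeR call, 5 higher and 3 lower at an unadjusted p under 0.05, and 3 higher by DESeq2. Bmp4, a BMP ligand, had 1.13 (SE 0.22), the matricellular gene Ccn2 had 0.86 (SE 0.18) and Smad3 had 1.17 (SE 0.28). Limma-voom called 0 genes in each of these lists outside the 10. Over all 84 tested genes of the pathway lists outside the 10, the median was 0.25.

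**Figure D4:**
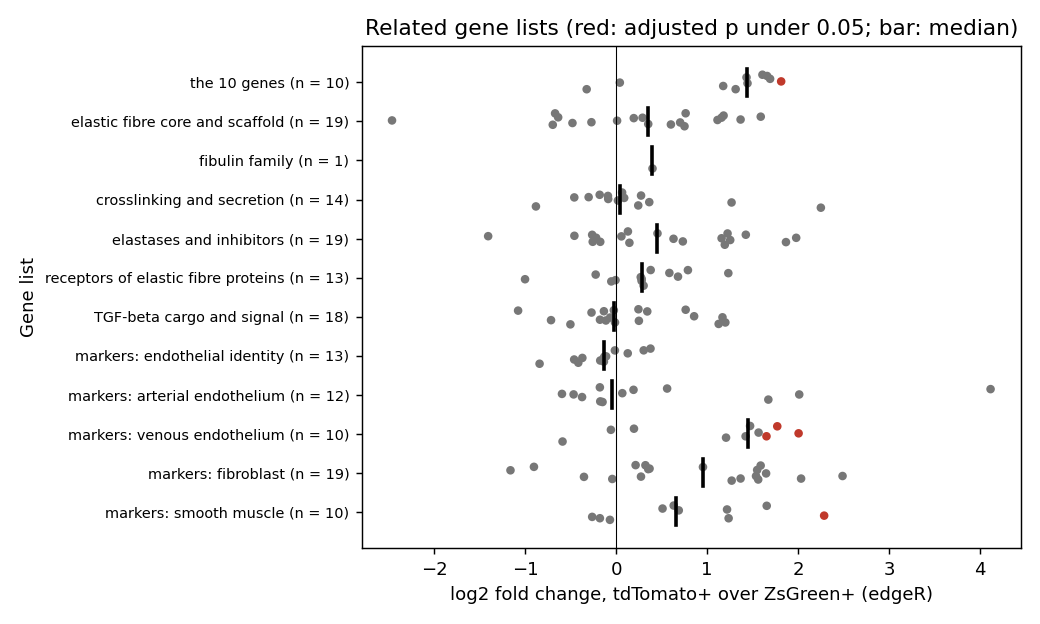
Log2 fold change of each tested gene of the pathway lists (without the 10 genes) and of 5 marker lists beside the 10 genes; bars are medians and red points passed edgeR's test. The 10 genes have a median of 1.44, against 0.35 for the other scaffold genes, 0.95 for fibroblast markers and 1.45 for venous markers.

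Markers of other cells that make or border elastic fibres were read beside these genes, and their part in the differences was not tested. Fibroblast markers summed to 365 and 622 CPM in tdTomato+ and 237 and 222 CPM in ZsGreen+ libraries over 19 genes, none at 0 in any library. edgeR called none of the 19, the median log2 fold change was 0.95, 9 were higher and 1 lower at an unadjusted p under 0.05, and DESeq2 called 4 higher. Their sum was highest in tdTomato+ replicate 2, as were 8 of the 10 genes in CPM, all but Fbln1 and Fbln2. The sums of smooth muscle, mesothelial, arterial, venous and alveolar type 2 markers were also highest in that library. Col1a1, the collagen I chain, stood at 18.5 and 38.8 TPM against 5.32 and 12.5 TPM, and Col3a1 at 17.8 and 33.9 TPM against 5.99 and 9.21 TPM. Eln and Fbln5 were above either collagen by TPM in each library. Mfap4, itself a microfibril protein, overlapped between groups at 66.7 and 87.9 against 76.2 and 45.1 CPM.

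Smooth muscle markers summed to 2170 and 2929 CPM in tdTomato+ and 1982 and 1630.3 CPM in ZsGreen+ libraries, over 12 genes of which Synpo2 and Hhip, named for this, were at 0 in at least 1 library. The median log2 fold change was 0.66 over 10 tested, and Acta2 was the 1 gene called. Tagln, an actin-binding protein, had 0.51 (SE 0.26), Smtn -0.26 (SE 0.19) and Mylk -0.07 (SE 0.18). Myh11, smooth muscle myosin, named after its value was seen, was low at 1.01 and 1.98 TPM against 0.59 and 1.36 TPM. Pericyte markers summed to 11.6 and 12 CPM against 7.40 and 12.8 CPM, with a median of 0.40 over 7 tested and no call by edgeR or DESeq2 (0 genes; 1 higher and 1 lower at an unadjusted p under 0.05). Kcnj8 had -2.77, Pdgfrb 1.11 and Cspg4 0.40. Mesothelial markers summed to 19.8 and 34.3 CPM against 20.4 and 26.5 CPM, with 5 of 8 at 0 in at least 1 library. edgeR called 0 of the 3 mesothelial genes tested, with 1 higher and 1 lower at an unadjusted p under 0.05 and 1 lower by DESeq2. Krt19 had 0.86, Msln 0.82 and Gpm6a -2.15.

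Markers of endothelial subtypes were read in the same way. The 12 arterial markers summed to 2090 and 2811 CPM in tdTomato+ and 2611 and 2616 CPM in ZsGreen+ libraries, with a median log2 fold change of -0.04 and no edgeR call (3 higher and 1 lower at an unadjusted p under 0.05, and 3 higher by DESeq2). Its 3 most abundant genes, Cxcl12, Gja4 and Sema3g, had -0.18, -0.15 and 0.07. Over the whole arterial list the values ran from -0.60 to 4.11. The 10 venous markers summed to 4814 and 5547 CPM against 2833 and 2665 CPM, with a median of 1.45 and 3 called higher, Cpe, Vcam1 and Car8. In this list 6 were higher and 1 lower at an unadjusted p under 0.05, DESeq2 called 5 higher and limma-voom 2. The abundant venous genes Vwf, Selp and Selenop had 1.47, 1.42 and -0.59. The lymphatic list had a median of -2.03 over 9 tested, with 4 called lower (Thy1, Fxyd6, Mmrn1 and Reln). There 7 were lower at an unadjusted p under 0.05, DESeq2 called 6 lower and limma-voom 2. Its abundant genes Flt4 and Lyve1 had -1.04 and 0.42.

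Macrophage markers summed to 4497 and 2313 CPM in tdTomato+ and 2607 and 583 CPM in ZsGreen+ libraries, highest in tdTomato+ replicate 1. The median log2 fold change was 1.05, with all 10 genes above 0, beside 49.3% of all genes tested. Only 2 of the 10 were higher without overlap, beside 19.9% of all genes tested. edgeR called 0 of 10, with 2 higher at an unadjusted p under 0.05 and 1 by DESeq2. Lyz2 had 1.11 (SE 0.68), Cd68 1.00 (SE 0.60) and C1qb 0.66 (SE 0.70), and each overlapped between groups. By TPM Lyz2 stood at 7397 and 3482 in tdTomato+ and at 3389 and 835 in ZsGreen+ libraries. Alveolar type 2 markers summed to 481 and 554 CPM against 344 and 197 CPM, with a median of 0.93 over 8 and 0 edgeR calls, 4 higher at an unadjusted p under 0.05 and 2 by DESeq2. Sftpc, surfactant protein C, had 1.21, Sftpb 1.36 and Abca3 0.08. Limma-voom called 0 genes in the arterial, macrophage, alveolar type 2, fibroblast, pericyte and mesothelial lists.

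The genes whose pattern over the 4 libraries was most like the average of the 10 were Tacc2, Ptprj, Fads3, Sftpb and Col6a1. Likeness was the Euclidean distance between log2 CPM values centred on each gene's mean, and these distances ran from 0.175 to 0.206. Tacc2, a centrosomal protein gene, stood at 24.5 and 33.8 against 13.2 and 11.1 CPM. Col6a1, a collagen VI chain, stood at 10.3 and 17.6 against 6.07 and 6.30 CPM. Of the 10 genes themselves Fbn1 (0.311) and Eln (0.327) lay nearest to their average and Efemp2 (1.71) and Emilin1 (1.17) farthest. Eln and Mfap5 were each other's nearest gene among the 10, at a distance of 0.278. With 4 libraries such distances are a description only.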

How the data were processed

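Per the labels' protocols, RNA from sorted cells was isolated with an RNeasy Micro kit, under 4 µL of it was amplified with the Discover-sc WTA kit, and libraries were built with a TruePrep kit for MGI. The authors deposited, per the file headers, estimated counts (read counts, not whole for 16.2% to 17.9% of values and rounded here), TPM, FPKM and a normalized count signal for 17915 coding genes. FPKM and the normalized signal were not used here. RSEM 1.3.1, DESeq2 1.4.5 and the builds mm10 and GRCm38 are named without roles, per the submitters' processing notes. Neither labels nor headers say whether counting used strand.

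edgeR 4.0.16 (R 4.3.3) compared the groups, read from the sample titles, by its two-sided quasi-likelihood test with TMM scaling and filterByExpr (minimum count 10), leaving 13177 genes. Benjamini-Hochberg adjustment ran over all of them, and an adjusted p under 0.05 made a call. The SE of a log2 fold change is its size divided by the root of F. With 2 against 2 libraries an exact permutation test cannot go below a p of 0.333, so none is given. The fit was tested on simulated data. The alternatives were other scalings and filters, DESeq2 1.42.0, limma 3.58.1 (voom, and log2 TPM with a pseudocount of 1 or 0.1), a replicate block and leaving out each library.

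The 10 genes, the lists and the tests were chosen with earlier results of these data known. All 10 are named. From each pathway list the called genes and the 3 of smallest p with a mean of at least 1 CPM are named. From each marker list the called genes and the 3 most abundant by mean CPM, which is not scaled to length, are named. Last come the 5 genes of most similar pattern. Fn1, Fbn2, Myh11, Synpo2 and Hhip fall outside this rule and were named after their values were seen. Mus81, Gm30003 and Gm9913 were named because they overlap Efemp2, Eln and Fbn1. Protein sequences, planned for 3 genes, were not used here.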

Additional observations from a re-analysis of the deposited data

How the results depend on the processing

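Fbln2 was called in 11 of 14 other settings. Under DESeq2 205 genes were called higher, 125 lower and 5 of the 10; without a filter on low counts 83, 45 and 3 (Ltbp4 and Fbln5 beside Fbln2). On log2 TPM with a minimum of 1 TPM, 9 were called lower with a pseudocount of 1 and 6 with 0.1. Without that minimum the limma calls were 0 higher and 0 lower, with 1508 genes at an unadjusted p under 0.05 and 0 of the 10 called. Log2 TPM moved the median of all genes from -0.01 to 0.12 with a pseudocount of 1 and to 0.13 with 0.1. A replicate block gave 679 higher, 255 lower and 7 of the 10; same-numbered libraries deviated together (r = 0.455 across genes), but the labels do not say that a number marks a shared mouse or day. Leaving out 1 library gave 0 to 203 genes higher, 4 to 101 lower and 0 to 2 of the 10. Without tdTomato+ replicate 2, where 0 genes were called higher, 712 had an unadjusted p under 0.05. The cause of these shifts was not tested. Efemp2 ranged from -1.12 to 0.19, turning without tdTomato+ replicate 1, and Emilin1 from -0.21 to 0.27, turning without tdTomato+ replicate 2 and, to -0.08, without ZsGreen+ replicate 1. Without Fbln5 the summed TPM averaged 1178 in tdTomato+ and 473 in ZsGreen+ libraries. RLE and upper quartile scaling, limma-voom and the stricter filter kept the calls among the 10. Efemp1 and Fbln1 rest on 16 to 136 counts a library; whether this depth bears on their test was not tested.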
